A study of Homo sapiens with 2 samples.

Results

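The genes of nuclear ribonuclease P (RNase P) are described here in HEK293 cells: RPPH1, which gives the RNA subunit, and the protein genes POP1, POP4, POP5, POP7, RPP14, RPP25, RPP30, RPP38 and RPP40. They were 10 of the 59026 genes, and 60 of the 202217 transcripts, whose identifiers matched GENCODE v44. The RNA and the set were chosen by levels measured in these same libraries, so the levels below are a description and were not tested. The study concerned METTL8, an enzyme that methylates mitochondrial tRNAs, and total RNA depleted of rRNA was sequenced from untreated cells of the Flp-In T-Rex line. This is a derivative of HEK293, an established human embryonic kidney line, with a site for inserting a tetracycline-controlled transgene. There was 1 group of 2 libraries, replicate 1 and replicate 2, and whether they came from separate cultures was not given, so the spread between them may be technical. No comparison between conditions could be made, and an exact two-sided test over 2 libraries cannot give a p below 0.5.

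RNase P is the endonuclease that removes the 5′ leader from precursor tRNAs, and in the human nucleus it consists of a catalytic RNA, also called H1 RNA, and a set of proteins. The RNA is transcribed by RNA polymerase III from a compact promoter that lies upstream of the transcribed part. Most of the proteins are also subunits of RNase MRP, a related enzyme with its own RNA that cleaves precursor rRNA. The mRNAs of the proteins are RNA polymerase II products, so the RNA and the protein genes are made by different polymerases, one without and the other with a poly(A) tail. Both kinds are retained when total RNA is depleted of rRNA rather than selected for poly(A).

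Per library the deposited tables held 25158962 and 27143860 estimated counts, of which 96.9% and 96.8% were on matched transcripts. The estimated count is what the program RSEM assigned to a transcript after dividing reads that fit several transcripts. The normalised count is the authors' estimated count divided by a size factor, 0.945 for replicate 1 and 1.08 for replicate 2, and serves to compare libraries. The length-normalised level is the estimated count divided by the GENCODE v44 transcript length, summed over a gene's transcripts and scaled to 1000000 per library. Genes are compared mainly in this level, and a comparison of genes in normalised counts is named as such. Of the 7 markers fixed for an embryonic kidney line, VIM was highest (length-normalised level 307 ± 6.54, SD, n = 2) and PAX8 had an estimated count of 1 in each library. Of 6 markers of other cell types, 3 (PTPRC, CD3E and ALB) were at 0 in both libraries, and HBB was highest at 20.6 ± 0.498 (SD, n = 2).

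RPPH1 (ENSG00000277209.1) is annotated on the minus strand of chromosome 14 (GRCh38, chr14:20343075-20343407) as an exon of 333 bases without introns, with RPPH1-201 as its transcript. Its first 300 bases are shown because they are the catalytic RNA whose level stands out below, and because copies of it elsewhere in the genome could share its reads. Capitals mark the bases that did not pair with an identical base of the annotated pseudogene RPPH1-3P in a global alignment (70 of the 300). The sequence is from the GENCODE v44 transcripts and spans chr14:20343108-20343407.
RPPH1-201, bases 1 to 300: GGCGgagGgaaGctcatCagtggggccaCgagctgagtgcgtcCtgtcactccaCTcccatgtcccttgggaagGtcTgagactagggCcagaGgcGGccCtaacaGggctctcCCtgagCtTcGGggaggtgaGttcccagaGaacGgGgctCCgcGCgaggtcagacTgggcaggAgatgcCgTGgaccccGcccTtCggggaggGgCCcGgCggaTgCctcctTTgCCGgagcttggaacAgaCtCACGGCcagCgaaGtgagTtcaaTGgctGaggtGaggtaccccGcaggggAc

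Over the whole RNA, 250 of 333 bases (75.1%) were identical to RPPH1-3P, which is annotated on chromosome 4, and 172 (51.7%) to RPPH1-2P on chromosome 14. Neither pseudogene shared a stretch of 50 bases with RPPH1, and both were at 0 estimated counts in both libraries. In contrast, all 284 stretches of 50 bases in RPPH1 were also present in another listed transcript, ENST00000554988 of the lncRNA gene ENSG00000259001. That transcript has 1 exon of 638 bases on the same strand (chr14:20343048-20343685) and contains RPPH1 whole, which makes up 52.2% of it. It begins 278 bases before the RPPH1 5′ end and runs 27 bases past its 3′ end. The ends of RPPH1 within it are shown because GENCODE and RefSeq place them differently: the RefSeq model has 341 bases, 4 more at each end, and these are in capitals.
RPPH1 5′ end, chr14:20343384-20343431, minus strand: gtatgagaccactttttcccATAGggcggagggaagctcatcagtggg
RPPH1 3′ end, chr14:20343051-20343098, minus strand: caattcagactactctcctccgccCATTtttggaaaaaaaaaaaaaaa

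PARP2, which codes for a poly(ADP-ribose) polymerase of the DNA damage response, is annotated on the opposite strand, and 207 bases lie between it and RPPH1 in GENCODE v44. The lncRNA model covers the first 71 bases of PARP2. The RefSeq promoter window of PARP2 (GRCh38.p14, plus strand, chr14:20343385-20343684) therefore holds the RPPH1 start as well, and reads away from RPPH1. It is shown because it carries the elements that a reader would look for upstream of RPPH1; capitals mark matches to the octamer ATTTGCAT, to TATAA and to the cyclic AMP response element TGACGTCA on either strand.
PARP2 promoter window: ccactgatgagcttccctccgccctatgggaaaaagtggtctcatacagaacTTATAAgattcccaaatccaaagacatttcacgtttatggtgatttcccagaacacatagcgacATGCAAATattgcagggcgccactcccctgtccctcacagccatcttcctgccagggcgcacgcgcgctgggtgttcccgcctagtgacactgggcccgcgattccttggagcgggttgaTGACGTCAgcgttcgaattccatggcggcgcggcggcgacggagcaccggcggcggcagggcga

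The octamer matched on the RPPH1 strand, and its nearest base lay 94 bases upstream of the RPPH1 5′ end. TATAA matched on both strands in 1 overlapping stretch, 30 bases upstream of RPPH1 on the RPPH1 strand, and TGACGTCA, which reads alike on both strands, lay 214 bases upstream of RPPH1 and 7 bases upstream of the PARP2 start in RefSeq, which lies inside PARP2 by the GENCODE model. Of 35116 RefSeq promoter windows of the same length, 1.77% held the octamer, 20.4% TATAA, 1.85% TGACGTCA and 0.575% both the octamer and TATAA. Among the 8 protein genes that matched the promoter table by symbol, 0 held the octamer, 0 held TGACGTCA and 1 held TATAA (RPP25). The GC content of the 8 windows ran from 52.7% for RPP30 to 72.3% for POP7, with a median of 58.7% over all windows. A match of letters is a description, not a site.

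RPPH1 had 257745 estimated counts in replicate 1 and 298243 in replicate 2. These were 1.02% (95% exact binomial interval 1.02 to 1.03, counting error only) and 1.10% (1.09 to 1.10) of all counts. Per 1000000 estimated counts it had 10245 and 10988, which average to 10616 ± 525 (SD, n = 2). The normalised counts, 272716 and 276560, lay close to each other, and the difference was 0.02 on the log2 scale.

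Per length, RPPH1 stood at 29541 and 30515, on average 30028 ± 688 (SD, n = 2), and ranked 4 of 59026 genes both in this level and in normalised counts. The rank covers matched genes; of the 4479 unmatched transcripts, 0 had more normalised counts than RPPH1 in either library (highest 177602 and 170255), and per length they could not be ranked. The genes next above it were RN7SK (126147 ± 5039, SD, n = 2), the RNA that holds back the elongation factor P-TEFb, and RN7SL2 (153365 ± 1955, SD, n = 2), an RNA of the signal recognition particle. RN7SL1, from the same family as RN7SL2, was highest at 205181 ± 20364 (SD, n = 2). The genes next below were the mRNA genes EEF1A1, a translation elongation factor, and RPS2, a ribosomal protein, at 3551 ± 390 and 3177 ± 29.1 (SD, n = 2). RPPH1 exceeded them 8.46-fold and 9.45-fold. The 4 highest genes per length were thus all RNA polymerase III products, and a wide gap separated RPPH1 from the first mRNA gene.

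The overlapping lncRNA transcript differed more between the libraries than RPPH1 did. It had 24290 normalised counts in replicate 1 and 71140 in replicate 2, 2.93-fold more (log2 1.55). Of the counts of the pair, it held 8.18% (95% exact binomial interval 8.08 to 8.28) in replicate 1 and 20.5% (20.3 to 20.6) in replicate 2. The sum of the pair was 297006 and 347700 normalised counts, 1.17-fold more in replicate 2 (log2 0.23), against 1.01-fold for RPPH1 alone. The closeness of the RPPH1 values between libraries therefore held for RPPH1 taken alone, and less so for its locus. Because every base of RPPH1 lies in both models, the split between them rests on the RSEM estimate, and its part in these values was not tested. With the lncRNA counts added, RPPH1 had a length-normalised level of 32172 in replicate 1 and 38364 in replicate 2.

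PARP2, on the other side of the shared start region, had 1024 normalised counts in replicate 1 and 848 in replicate 2. Its length-normalised level was 20.3 ± 2.06 (SD, n = 2), and RPPH1 exceeded it 1355-fold in replicate 1 and 1615-fold in replicate 2. The library with more PARP2 counts was thus not the one with more lncRNA counts.

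**Figure D1:**
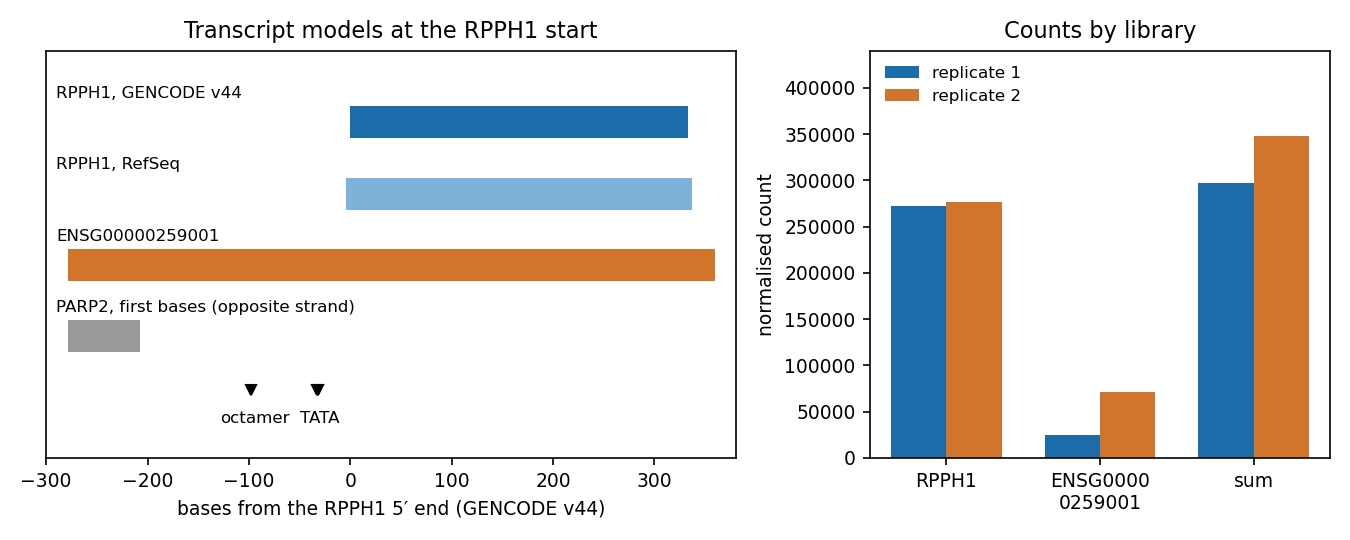
Left, transcript models at the RPPH1 start, drawn as distance in bases from the RPPH1 5′ end on its own strand, with PARP2 running to the left and the octamer and TATAA matches as triangles. Right, normalised counts for RPPH1, the overlapping lncRNA transcript and their sum in each library (1 bar per library, no error bars): the RPPH1 bars are 272716 and 276560, while the lncRNA bars are 24290 and 71140.

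The protein genes were all detected in both libraries but at levels far below the RNA. Summed over the 9 genes, the length-normalised level was 257 in replicate 1 and 242 in replicate 2, and RPPH1 exceeded the sum 115-fold and 126-fold. Set against the median protein gene (13.2 ± 2.09, SD, n = 2), RPPH1 was higher by 2015-fold in replicate 1 and by 2606-fold in replicate 2 (log2 ratio 11.16 ± 0.26, SD, n = 2). The log2 ratio ran from 9.28 in normalised counts to 12.15 with effective lengths for fragments of 200 bases. The ratio to single protein genes ran from 313 ± 29.5 for POP4 to 10111 ± 1713 for RPP25 (SD, n = 2). These are ratios of RNA molecules as sequenced and not of protein subunits. In 26370 genes each library had 1 normalised count or more; their median length-normalised level was 1.87, and that of the 15537 protein-coding ones among them 7.69, so the protein genes lay on either side of the latter.

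**Figure D2:**
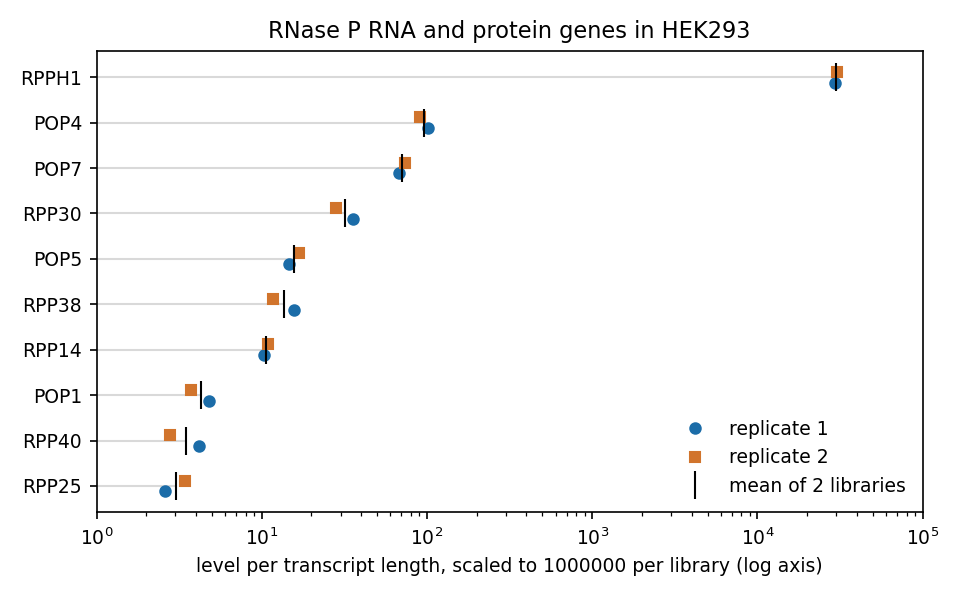
Length-normalised level (log axis, scaled to 1000000 per library) of the 10 genes in replicate 1 (circles) and replicate 2 (squares), with the mean of both as a vertical mark. RPPH1, at 30028, lies over 2 decades to the right of POP4, the highest protein gene at 96.2, and the protein genes spread down to RPP25 at 3.02.

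The order of the protein genes per length was POP4, POP7, RPP30, POP5, RPP38, RPP14, POP1, RPP40 and RPP25. A difference was taken as above the spread when the order was the same in each library and the means differed by more than the sum of their SDs. This held for 31 of 36 pairs of protein genes and for 4 of the 8 neighbouring pairs. The share over pairs of all genes was not computed, so these counts are not shown to be particular to the set. POP4 over POP7, POP7 over RPP30, RPP30 over POP5 and RPP14 over POP1 were above the spread. POP5 and RPP38, RPP38 and RPP14, POP1 and RPP40, and RPP40 and RPP25 did not differ beyond it.

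POP4 (chr19:29606283-29617237, plus strand), the subunit also known as RPP29, was highest of the protein genes in this order. It had 2164 and 1851 normalised counts in replicates 1 and 2, and a length-normalised level of 96.2 ± 6.87 (SD, n = 2), higher than that of 97.4% of the 26370 genes. The lead of POP4 depended on which transcripts were counted. With the protein-coding transcripts alone its level was 14.2 ± 2.69 (SD, n = 2), behind POP7 and RPP30, and with the gene total divided by the canonical transcript length it was 28.6 ± 2.78 (SD, n = 2), below POP7.

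POP7 (chr7:100706121-100707486, plus strand) and RPP25 (chr15:74954418-74956772, minus strand) code for proteins of the Alba family that bind the RNA as a heterodimer. POP7 had 1601 and 1690 normalised counts, and RPP25 had 170 in replicate 1 and 220 in replicate 2. Per length POP7 was at 70.8 ± 4.05 (SD, n = 2) and RPP25 at 3.02 ± 0.579 (SD, n = 2), so the mRNAs of these partners stood near opposite ends of the order. RPP25L, which codes for a protein related to RPP25, was at 15.0 ± 3.38 (SD, n = 2), above RPP25 in both libraries and beyond the spread. No stretch of 50 bases of RPP25 occurred in a listed transcript of another gene, RPP25L included.

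RPP30, POP5, RPP14 and RPP40 code for subunits that assemble together in the enzyme. RPP30 (chr10:90871952-90908553, plus strand) had 889 and 662 normalised counts and a length-normalised level of 31.7 ± 5.30 (SD, n = 2). POP5 (chr12:120578764-120581402, minus strand), a protein structurally related to RPP14, had 374 and 403 normalised counts and a level of 15.7 ± 1.5 (SD, n = 2). RPP14 (chr3:58306245-58324695, plus strand) had 1093 and 1017 normalised counts and a level of 10.6 ± 0.395 (SD, n = 2). RPP40 (chr6:4994717-5004063, minus strand) had 111 and 81.6 normalised counts, the lowest counts of the set, and a level of 3.47 ± 1.0 (SD, n = 2). Within this group the levels fell from RPP30 to RPP40, in the same order in both libraries. The place of RPP30 depended on length: with the gene total divided by canonical length it was at 12.1 ± 2.34 (SD, n = 2), and its mean was then below that of POP5.

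RPP38 (chr10:15097180-15139818, plus strand) codes for a protein of the L7Ae family, which binds kink-turns in RNA. It had 482 and 383 normalised counts and a length-normalised level of 13.6 ± 2.73 (SD, n = 2). POP1 (chr8:98117293-98159835, plus strand), the gene of the largest protein subunit, had 470 and 380 normalised counts. Its length-normalised level, 4.27 ± 0.770 (SD, n = 2), was above that of 59.7% of the 26370 genes, against 55.2% for RPP25 and 57.0% for RPP40. The lowest protein genes of the set were thus above the median of all genes with counts in both libraries (1.87). They were below the median of the protein-coding ones among these (7.69).

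RPP21, a subunit of RNase P that is not a member of the set, was at 27.6 ± 3.74 (SD, n = 2), with 366 and 456 normalised counts. RMRP, the RNA of RNase MRP, had no row matched to GENCODE v44 and was not analysed here, so the RNAs of the 2 related enzymes could not be set side by side.

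The levels of the protein genes depended on how length entered. With effective lengths for assumed fragments of 150 or 200 bases, POP4 stayed highest. With protein-coding transcripts alone, or with gene totals divided by canonical length, POP7 was highest. The lowest gene followed the library and not the length: under each of these settings it was RPP25 in replicate 1 and RPP40 in replicate 2. In all 9 protein genes the canonical transcript has another version in GENCODE v44 than in the deposited tables, so its length may differ from that of the model counted, while RPPH1-201 has the same version in both.

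**Figure D3:**
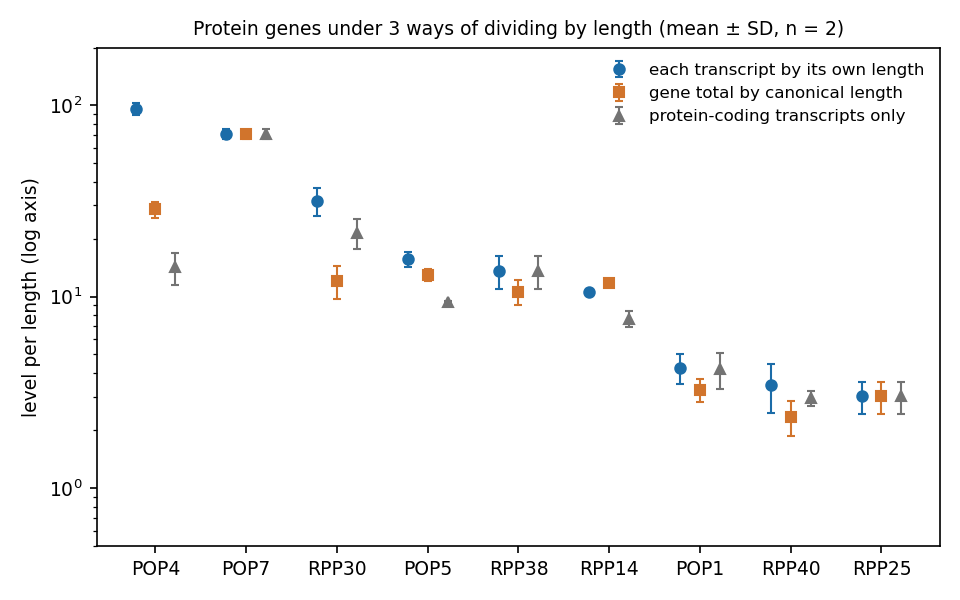
Level per length (log axis) of the 9 protein genes, as mean and SD of the 2 libraries, with each transcript divided by its own length (circles), the gene total divided by the canonical length (squares) and protein-coding transcripts alone (triangles). POP4 drops from 96.2 to 28.6 and 14.2 across the 3, while POP7 stays between 70.5 and 70.8.

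Of the 60 listed transcripts of the set, 6 were at 0 in both libraries, 13 were at 0 in 1 library and 27 held a mean share of at least 5% of their gene. Of all 206696 listed transcripts, 101920 were above 0 in replicate 1 and 106754 in replicate 2. Among the 60 of the set, 29 are annotated as protein-coding, 14 as retained intron and 3 as targets of nonsense-mediated decay. A further 13 have no defined coding sequence, and the remaining transcript is RPPH1-201. The median share of a gene's estimated counts on protein-coding transcripts was 97.9 ± 2.19% (SD, n = 2) over the 9 protein genes, and 93.1 ± 0.50% over the 13955 protein-coding genes whose mean reached 10 normalised counts. Per length, the median over the 9 was 87.3%. The genes fell far apart around this median, from 33.3 ± 2.76% for POP4 to 100% for POP7, RPP25 and RPP38 in both libraries.

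In POP4 the leading transcript in both libraries was POP4-207, a retained-intron model of 2 exons and 608 bases. Its normalised counts were 826 and 628, and its share of the gene was 36.1 ± 3.0% (SD, n = 2). The protein-coding POP4-201 followed with 24.9 ± 1.23% and POP4-213, which has no defined coding sequence, with 23.2 ± 4.27%. All retained-intron models together held 41.8 ± 1.07% of POP4 counts (SD, n = 2), more than the protein-coding ones in both libraries. The canonical POP4-202 held 4.27 ± 1.03%.

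POP5 and RPP30 also had a part of their counts outside protein-coding models. In POP5, the canonical POP5-202 led with 242 and 237 normalised counts (61.8 ± 4.19% of the gene, SD, n = 2), POP5-201 held 8.78 ± 0.0366%, and retained-intron models held 21.5 ± 2.17%, among them POP5-207 with 7.78 ± 0.808% and POP5-205 with 5.84 ± 1.41%. POP5-208, without a defined coding sequence, held 5.54 ± 2.25%. In RPP30 the leading transcript was RPP30-204, a protein-coding model whose coding sequence is annotated as incomplete, with 387 and 281 normalised counts (43.0 ± 0.816%). RPP30-205, without a defined coding sequence, held 14.8 ± 1.79% and the canonical RPP30-202 14.7 ± 2.61%, so their order was not separated by the spread. RPP30-210, RPP30-203 and RPP30-209 held 10.1 ± 0.470%, 9.57 ± 3.36% and 5.56 ± 1.76% (SD, n = 2).

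In POP7, RPP25, RPP14, RPP38 and POP1 at least 93.2% of counts were on protein-coding models in each library. POP7-201 held 99.4 ± 0.813% of POP7, and RPP25 has 1 listed transcript without introns, RPP25-201. RPP14-202 (54.2 ± 0.485%) led RPP14-201 (39.8 ± 1.16%) in counts, while per length RPP14-201 led in both libraries. RPP40 had 83.5% of its counts on protein-coding models in replicate 1, with the remaining 16.5% on retained-intron models, and 100% in replicate 2. RPP40-207 led with 71.3 ± 13.5% and RPP40-201 followed with 16.1 ± 6.43%. The canonical RPP40-202 was at 0 in replicate 1 and at 6.22 normalised counts in replicate 2, and the retained-intron RPP40-204 at 12.8 and 0, so these shares differ with the library.

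RPP38 and POP1 each divided their counts between a pair of transcripts. RPP38-203 had 305 normalised counts in replicate 1 and 167 in replicate 2, and the canonical RPP38-201 had 110 and 164, so the former led by a wide margin in replicate 1 and by a narrow margin in replicate 2. RPP38-204 held 9.36 ± 0.625% of the gene. In POP1, POP1-201 had 235 and 175 normalised counts and the canonical POP1-202 had 228 and 203, so the leader in counts changed between the libraries, while per length POP1-201 led in both. The leading transcript in counts was the same in both libraries in 7 of the 8 protein genes with several transcripts. The share was 78.5% over 16735 genes, coding or not, with several transcripts and at least 1 normalised count in each library. That filter lies far below the counts of the members, of which RPP40 had the lowest mean at 96.4 normalised counts.

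**Figure D4:**
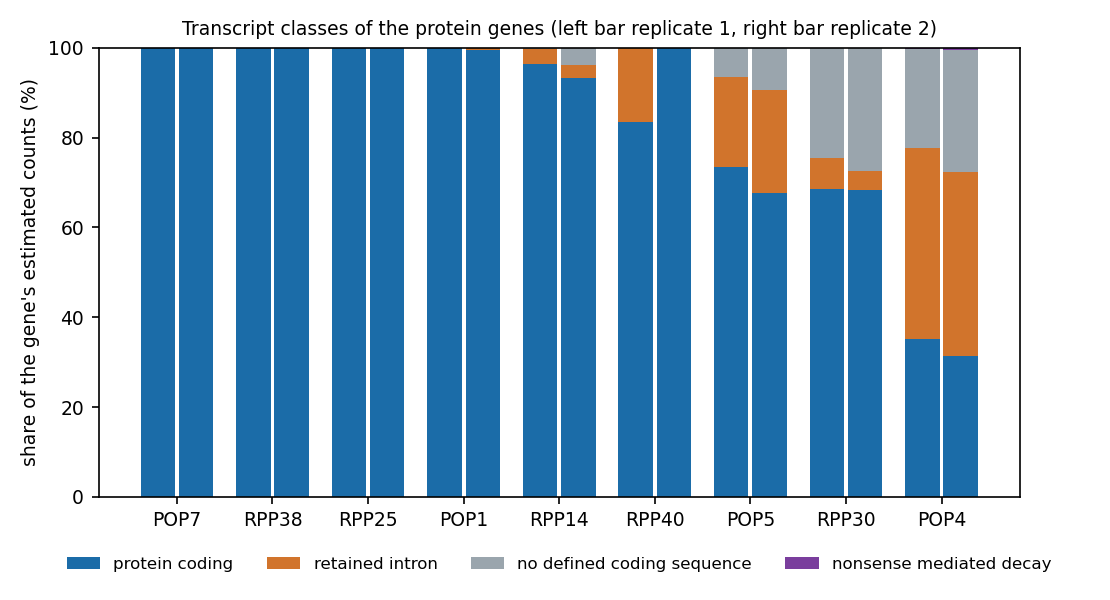
Share of each protein gene's estimated counts (percent) by class of transcript model, with replicate 1 as the left and replicate 2 as the right bar of each pair. The classes are protein-coding, retained intron, no defined coding sequence and nonsense-mediated decay. POP7, RPP38, RPP25 and POP1 are at or near 100% protein-coding, and POP4 is lowest at 33.3 ± 2.76% (SD, n = 2).

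Some of the protein genes also share their locus with another gene. RPP14 overlaps HTD2, which codes for a mitochondrial dehydratase of fatty acid synthesis, on the same strand, and 41.2% of the distinct 50-base stretches of RPP14 transcripts occurred in transcripts of other genes, HTD2 among them. HTD2 had 166 and 140 normalised counts, and RPP14 counts are uncertain to the extent that RSEM divided reads between them. RPP38 overlaps NMT2, a gene of an N-myristoyltransferase, on the opposite strand, and 23.4% of its stretches occurred in reverse in transcripts of other genes, NMT2 and RPP38-DT among them. NMT2 had 1202 and 990 normalised counts. No source used here gives the strand setting, so whether reads of RPP38 and NMT2 were told apart where they overlap is not known. RPP40 overlaps LYRM4-AS1 (5.29 and 4.64 normalised counts) and RPP30 overlaps a Y_RNA gene (1.06 and 0), both on the opposite strand. In POP5 and RPP30 at most 1.3% of stretches were shared in either direction, and POP1, POP4, POP7, RPP25 and RPP40 shared none. POP1 and RPP25 start within 1000 bases of a gene on the opposite strand, RIDA (484 and 308 normalised counts) and SCAMP5 (131 and 146).

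Between the libraries, 0 of the 10 genes differed by more than 1.5-fold in normalised counts, against 16.7% of the 19110 genes with a mean of at least 10. The median size of the difference, on the log2 scale, was 0.26 over the 10 genes and 0.28 over all. RPP40 differed most, 1.36-fold higher in replicate 1, followed by RPP30, 1.34-fold higher in replicate 1, and RPP25, 1.29-fold higher in replicate 2. Of the 10 genes, 6 were higher in replicate 1 (RPP40, RPP30, RPP38, POP1, POP4 and RPP14), and the same was true of 55.2% of all genes. RPPH1, POP7, POP5 and RPP25 were higher in replicate 2. With the length-normalised level in place of normalised counts, 1 of the 10 passed 1.5-fold (RPP40, at 4.18 and 2.77), against 19.2% of the same 19110 genes.

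**Figure D5:**
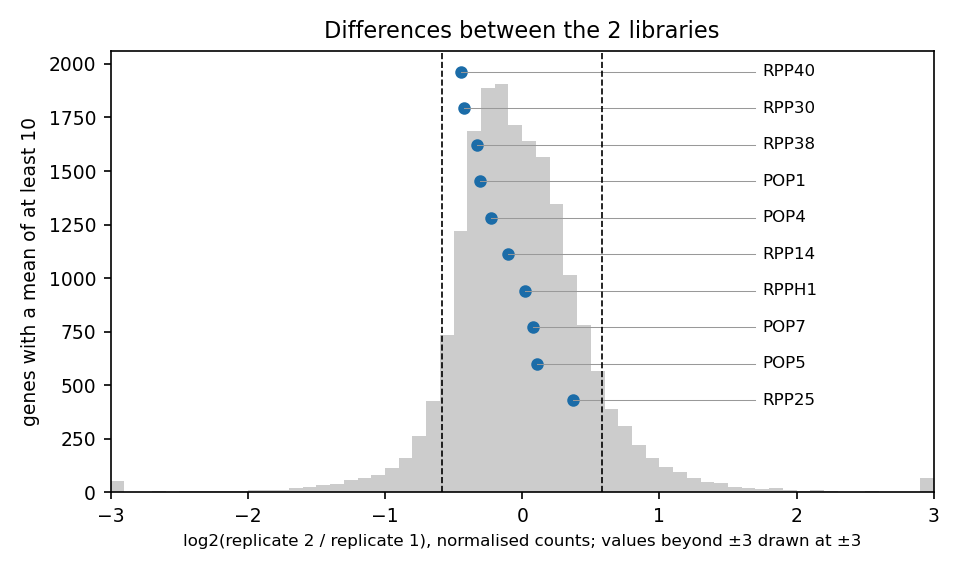
Difference between the libraries as log2 of replicate 2 over replicate 1 in normalised counts, as a histogram of the 19110 genes with a mean of at least 10 (grey) and as a point for each of the 10 genes, placed at staggered heights for legibility only. All 10 points lie between the dashed lines at 1.5-fold, from RPP40 at -0.45 to RPP25 at 0.37.

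Of the 36 transcripts of the set whose mean reached 10 normalised counts, 4 differed by more than 2-fold on the log2(normalised count + 1) scale, against 29.4% of the 65698 such transcripts overall. RPP40-201 fell from 22.9 to 9.42, POP4-211 from 39.9 to 17.9 and RPP30-209 from 60.4 to 28.6 normalised counts between replicate 1 and replicate 2. RPP14-204 had 3.77 in replicate 1 and 27.8 in replicate 2. None of these 4 was the leading transcript of its gene, and each held a small part of it, at most 16.1 ± 6.43% (SD, n = 2) for RPP40-201. With transcripts of a mean of at least 1 included, 18 of 53 differed by more than 2-fold, against 41.6% of 107819 overall.

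The mitochondrial enzyme that performs the same step on mitochondrial precursor tRNAs is made of proteins alone, and its genes offer a comparison within these libraries. Over its subunits, the tRNA 3′ end nucleases and the La protein, 6 genes in all, the length-normalised level ran from 1.51 ± 0.0372 for ELAC1 to 89.4 ± 4.55 for HSD17B10 (SD, n = 2). The catalytic subunit PRORP was at 11.3 ± 1.36 and the subunit TRMT10C, a methyltransferase, at 13.4 ± 3.79 (SD, n = 2). Between the libraries, 0 of these 6 differed by more than 1.5-fold, beside 16.7% of all genes, which over 6 genes is too few to read anything from.

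Among the 18 RNAs listed as made by RNA polymerase III, 16 had a row and 6 of these were at 0 in both libraries, the U6 genes RNU6-1, RNU6-2, RNU6-7, RNU6-8 and RNU6-9 and the vault RNA VTRNA2-1. A count of 0 allows up to 3 counts per library. These zeros do not show that U6 RNA was absent, as the paper detected U6 in HEK293 cells by northern blotting. The reason for the zeros was not tested. Of the 7 listed RNAs whose mean reached 10 normalised counts, 2 differed by more than 1.5-fold, beside 16.7% of all genes. The Y RNAs RNY1 and RNY3, with 565 and 886 and with 1622 and 3267, were higher in replicate 2, where RPPH1 differed 1.01-fold. RNU6ATAC had 114 and 134 normalised counts and RNY4 28.6 and 26.9.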

How the data were processed

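The labels give TRI reagent extraction, DNase treatment, rRNA depletion and TruSeq libraries. The authors deposited, per transcript, an estimated count (RSEM) and a normalised signal, named EB-Seq-Normalised per the file headers, which scales each library by 1 size factor. The submitters' processing notes name STAR 2.7.0d, RSEM 1.3.3, R 3.6.3 and FastQC. The genome was GRCh38; no source used here gives the strand setting. Separate tables of METTL8 transcripts were left out.

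Identifiers of 206696 transcripts were matched without version to GENCODE v44; the 4479 unmatched stayed in library totals only. Members and gene lists were chosen with earlier results of these data known, and the report names all 10 genes, their transcripts of at least 5% mean share, genes next to them by position or level, and list extremes. Further names were chosen after their values were seen. Values are means ± SD of 2 libraries, with no test. Intervals cover counting error only. Folds between transcripts used a pseudocount of 1. In separate code, the fold rule between libraries was tried on simulated Poisson counts and the division by length on set values. The other steps were not tested in this way. Python 3.11.15, pandas 2.3.3, numpy 2.4.6, SciPy 1.17.1 and Biopython aligned, counted and summed. Alternatives were denominators, lengths, units, filters and left-out libraries.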

Additional observations from a re-analysis of the deposited data

How the results depend on the processing

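Of 29 alternatives other than leaving out a library, 14 moved a value by less than 1 SD (or a count by less than 1.5 times) and 15 moved it further. RPPH1 per 1000000 counts was 12806 without misc_RNA, ribozyme and snRNA transcripts in the total and 12485 with the overlapping lncRNA added. Its length-normalised level was 33225 and 34371 with effective lengths for fragments of 150 and 200 bases, and 35268 with the lncRNA added. The log2 ratio to the median protein gene was 9.28 in normalised counts, 11.78 and 12.15 with the effective lengths, and 11.64 with protein-coding transcripts alone. The log2 ratio of the highest to the lowest protein gene was 4.39 in normalised counts, 4.58 with protein-coding transcripts alone and 5.44 with fragments of 200 bases. The median protein-coding share was 87.3% per length. Genes over 1.5-fold between libraries numbered 1 per length, and transcripts over 2-fold numbered 18 of 53 with a mean of at least 1, against 41.6% of all such transcripts. The cause of these shifts was not tested beyond the change each alternative makes. The alternatives with the lncRNA added or with canonical lengths were chosen after seeing the data. Leaving out either library gave 10245 to 10988 per 1000000 counts, 29541 to 30515 per length, log2 10.98 to 11.35 to the median protein gene, log2 4.74 to 5.28 between highest and lowest, and a share of 96.3% to 99.4%; with 2 libraries this says nothing of stability. No paired analysis was possible because there was 1 group. The ratio of RPPH1 to RMRP was not run, as RMRP was not matched, and the count of pairs needs both libraries.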

Other observations

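The enzymes that splice precursor tRNAs, 6 listed genes, had length-normalised levels from 6.41 ± 1.20 for CLP1, a kinase bound to the endonuclease, to 54.5 ± 5.80 for RTCB, the tRNA ligase (SD, n = 2). Between the libraries 0 of the 6 differed by more than 1.5-fold in normalised counts, beside 16.7% of all genes.

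The factors that direct RNA polymerase III, 20 listed genes of the SNAP complex, the TFIIIB subunits, promoter-binding activators and the polymerase itself, were all detected in both libraries. Their length-normalised levels ran from 2.88 ± 0.271 for POLR3B to 56.3 ± 0.545 for POLR3E (SD, n = 2), with a median of 8.78. Between the libraries 3 of the 20 differed by more than 1.5-fold, BDP1, POLR3F and POLR3G, each higher in replicate 1, against 16.7% of all genes in either direction.

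Estimated counts of RPPH1 were not whole numbers in either library (within 0.05). The sum of RPPH1 and the overlapping lncRNA transcript was whole in replicate 1 and not in replicate 2. The gene sums of POP4, POP5, POP7, RPP25 and RPP40 were whole in both libraries, and those of RPP14 and RPP38 in neither. That of RPP30 was whole in replicate 2 only. The sum of POP1 was whole in replicate 2, and in replicate 1 it was 443.95, at the edge of the tolerance. The share of all genes with whole sums was not computed, and no cause was tested.

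The lncRNA ENSG00000259001 ranked 10 of 59026 genes per length, at 1373 in replicate 1 and 4097 in replicate 2. Its transcript contains RPPH1 whole, so this rank rests on how RSEM divided reads between them, which was not tested.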
